A study of Mus musculus with 6 samples.

Results

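The insulin-like growth factor (IGF) family was examined in C3H10T1/2 cells, a mouse mesenchymal line that can be turned into fat, cartilage, bone or muscle cells in culture. The family was taken as 10 genes, namely the ligands Igf1 and Igf2, the receptors Igf1r and Igf2r, and the binding proteins Igfbp2, Igfbp3, Igfbp4, Igfbp5, Igfbp6 and Igfbp7. Its members were all probe sets (groups of short array probes for 1 transcript) that the platform annotation assigns to one of these symbols, which were 29 of the 45101 on the array. One group of 3 samples had received 50 ng/ml BMP4, a ligand of the bone morphogenetic protein family, while the cells proliferated, and a control group of 3 samples had not. Both groups carried no other treatment or genetic change in the labels, both were cultures of this 1 line, and total RNA of both was taken after the cells had grown past confluence. The series asked which genes BMP4 regulates as these cells commit to the adipocyte lineage. Whether the 3 samples of a group came from separate cultures is not in the labels, so every error and p-value here describes variation among 3 arrays that could be purely technical.

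IGF1 and IGF2 are secreted peptides that drive growth, survival and differentiation through IGF1R, a receptor tyrosine kinase that signals by way of insulin receptor substrates, phosphatidylinositol 3-kinase and Akt. IGF2R, which is also the cation-independent mannose 6-phosphate receptor, takes IGF2 up for breakdown and sends no growth signal of that kind. The binding proteins hold the ligands outside the cell, where they can keep them from the receptor or store and deliver them, until proteases cut the binding protein and set the ligand free. In cultured preadipocytes, IGF1 and high insulin are standard stimuli of adipocyte differentiation.

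Values are array signals in arbitrary units. The array has no detection calls in the values used here, so background was read from 27 probe sets for bacterial transcripts that gave no spike-in signal. Their highest value was between 16.6 and 29.1 on the 6 arrays. It was higher on the BMP4 arrays (23.5, 29.1 and 24.1) than on the control arrays (17.1, 16.6 and 21.0). A probe set was tested when its mean log2(signal + 16) lay above the 40th percentile, and it is said to have risen or fallen when its adjusted p was under 0.05 in a limma fit across all 27022 probe sets tested. Changes given as log2 were computed after adding 16 to each signal, so that dim genes appear to change less than they did. The family was selected on these same signals, since it was proposed with the difference between BMP4 and control arrays already known, so its changes and calls are given as a description, without p-values, and nothing is inferred from how many there are. Over all probe sets tested 9.12% changed, 4.91% downward and 4.20% upward (limma, adjusted p under 0.05), and without control replicate 2 the number fell from 2464 to 1612. Of the calls 46.1% were upward, against 25.1% when each array was centred on its median, which moved the median change of all probe sets from 0.03 to -0.07.

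Of the 29 family probe sets, 28 had 1 symbol and 26 of these were tested, covering all 10 genes. BMP4-treated cells had less transcript of Igfbp5, Igfbp3, Igfbp4 and Igf2. Smaller falls were seen on 1 of the 2 tested Igf2r probe sets and on 2 of the 5 of Igf1r. Igf1 rose on 1 of its 4 probe sets. No probe set of Igfbp2, Igfbp6 or Igfbp7 was past the threshold. In all 14 probe sets fell, against 4.91% of all probe sets, and 1 rose, against 4.20%. By each gene's brightest probe set 5 of the 10 genes fell, against 5.66% of the 12966 genes tested, and the others were not past the threshold. The BMP4 arrays lay wholly below the control arrays at 15 of the 26 probe sets (13.2% of all tested) and wholly above at 2 (15.0% of all tested). The median log2 change was -0.41 over the 26 probe sets and 0.03 over all tested. The changes ran from -3.59 to 0.39.

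**Figure D1:**
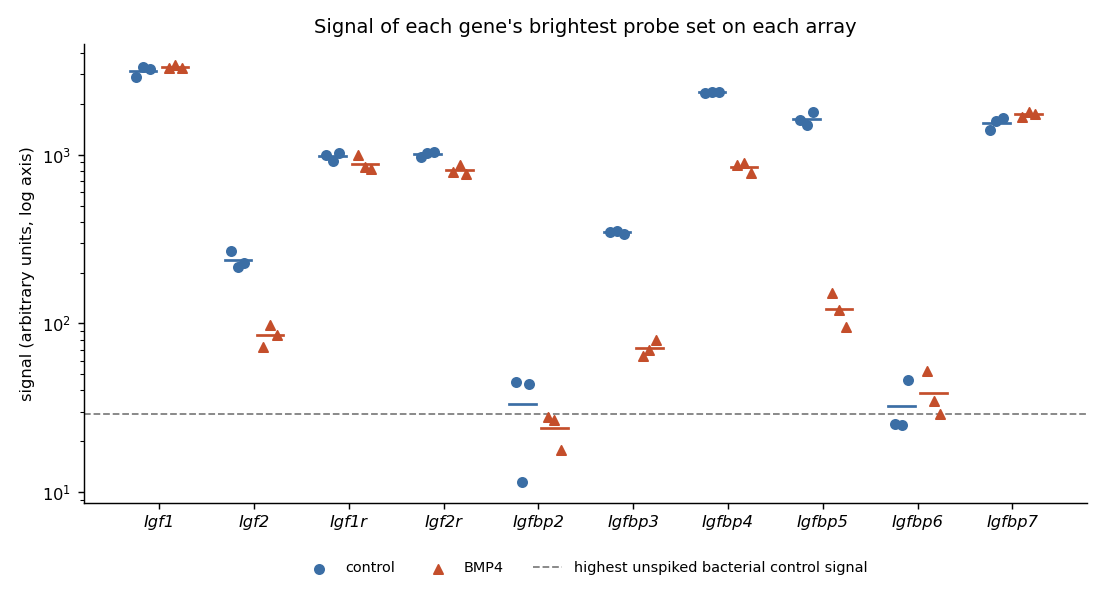
Signal of each gene's brightest probe set on each of the 6 arrays (log axis, arbitrary units; circles are control arrays, triangles BMP4 arrays, short lines group means, and the dashed line the highest bacterial control signal of 29.1). The 3 BMP4 arrays sit below the 3 control arrays for Igf2, Igf2r, Igfbp3, Igfbp4 and Igfbp5, and the groups overlap for Igf1, Igf1r, Igfbp2 and Igfbp6.

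The start regions of the 3 binding protein genes that fell furthest are shown because they are the stretches through which transcription of these genes is started. They are the 250 bases before the RefSeq transcript start (build GRCm38.p6), and capitals mark the letters TATAAA or the variants TATATA or TTTAAA, which are forms of the TATA element.
Igfbp5, chr1:72874866-72875115, minus strand: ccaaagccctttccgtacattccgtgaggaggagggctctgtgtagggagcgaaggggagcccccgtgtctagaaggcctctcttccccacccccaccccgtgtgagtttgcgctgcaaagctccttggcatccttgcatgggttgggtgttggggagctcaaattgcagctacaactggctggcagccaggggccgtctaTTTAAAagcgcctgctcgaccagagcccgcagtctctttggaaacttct
Igfbp3, chr11:7213924-7214173, minus strand: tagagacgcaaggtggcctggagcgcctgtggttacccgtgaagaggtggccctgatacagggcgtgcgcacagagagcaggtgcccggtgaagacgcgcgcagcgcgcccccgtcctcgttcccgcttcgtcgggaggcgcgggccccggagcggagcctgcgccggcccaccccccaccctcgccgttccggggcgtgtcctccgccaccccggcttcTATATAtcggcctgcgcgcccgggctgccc
Igfbp4, chr11:99040994-99041243, plus strand: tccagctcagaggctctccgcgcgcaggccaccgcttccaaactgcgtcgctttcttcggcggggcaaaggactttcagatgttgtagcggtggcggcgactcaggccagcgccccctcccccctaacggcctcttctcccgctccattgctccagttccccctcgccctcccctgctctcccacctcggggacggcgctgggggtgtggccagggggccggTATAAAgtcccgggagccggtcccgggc
Each of these 3 regions held 1 such stretch, as did that of Igfbp6, whose change was not past the threshold, and no other of the family's 14 start regions did. Any of the 3 forms was in 24.6% of all regions of this length. TTTAAA began 49 bases before the Igfbp5 start, TATATA 30 bases before the Igfbp3 start and TATAAA 28 bases before the Igfbp4 start. The Igfbp6 match was TATAAA on the opposite strand and lay farther off, 148 bases before the start. Among all 32851 regions of this length, 12.1% held TTTAAA, 5.25% TATATA and 12.4% TATAAA on either strand. The letters GGCGCC or CAGAC, known as sites of Smad proteins, were searched on both strands as well and occurred in none of the 3 regions. All 10 genes matched the RefSeq table. GGCGCC was in 1 of the family's 14 start regions, that of Igf1, against 9.59% of all regions. CAGAC was in 7 of the 14, among them 3 of the 4 Igf2 starts and those of Igf1r and Igf2r, against 42.2% of all. The GC content of the 3 printed regions was 58.8% for Igfbp5, 73.2% for Igfbp3 and 69.2% for Igfbp4, beside a median of 52.4%. High values were not particular to them, with 74.0% for Igfbp7, 77.6% for Igf1r and 69.2% for Igf2r. The remaining regions of the family ran from 47.6% to 68.8%. Motifs were chosen after the sequences had been seen, and a match of letters is no measure of binding.

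Igfbp5 encodes a binding protein that is rich in bone and connective tissue matrix and also binds matrix proteins there. Its brighter probe set had signals of 1612, 1509 and 1788 on the control arrays and of 152, 120 and 95.7 on the BMP4 arrays. Each BMP4 array thus lay far below every control array. The mean was 1636 ± 141 without and 122 ± 28.1 with BMP4 (SD, n = 3), a ratio of 13.4, and the log2 change was -3.59 ± 0.13 (SE), the second lowest of all 27022 tested. The other Igfbp5 probe set also fell, but by less and with more spread. It had 366, 421 and 564 in control cells and 218, 202 and 79.0 with BMP4, so BMP4 replicate 3 was well below the other two. Its log2 change was -1.44 ± 0.29, and the 95% intervals of both probe sets, -3.88 to -3.31 and -2.07 to -0.81, did not meet. On these arrays the size of the Igfbp5 fall differed between its probe sets, while its direction did not. The brighter probe set has the suffix _s_at, whose design allows probes shared by several transcripts. The brightest probe sets of Igfbp3 and of C1s1, Dlk1 and Sesn1, named below, share this suffix. Without the intensity trend in limma the dimmer one was no longer past the threshold.

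Igfbp3 encodes the main IGF carrier of blood, which is also secreted by fibroblasts. In control cells its 2 probe sets had signals of 351, 351 and 339 and of 387, 354 and 361. With BMP4 the first gave 64, 69.9 and 79.8, and the second 15.6, 62.6 and 45.0. The second was at background on BMP4 replicate 1, where the bacterial controls reached 23.5. The log2 changes were -2.06 ± 0.10 and -2.84 ± 0.26 (SE, n = 3 a group), ranks 19 and 7 among the falls of all tested. With a pseudocount of 1 in place of 16 they were -2.27 and -3.33.

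Igfbp4 encodes a binding protein known mainly as an inhibitor of IGF action, which the protease PAPP-A cuts. All 6 of its probe sets fell. The brightest had signals of 2335, 2344 and 2354 in control cells and of 871, 891 and 784 with BMP4, so the control arrays were nearly alike and the groups lay far apart. Its log2 change was -1.45 ± 0.07 (SE). The other 5 probe sets changed by -1.74, -1.68, -1.51, -1.44 and -0.87, and the BMP4 arrays were wholly below the control arrays on each. The probe set at -1.51 was at background on BMP4 replicate 1, with 16.1, and its change was -1.16 without that array, -0.96 with a pseudocount of 64 and -1.91 with a pseudocount of 1. The probe sets of the largest (-1.74) and the smallest (-0.87) of these changes both have the suffix _x_at, whose design allows probes that match other transcripts too. The one at -0.87 was built on the same source sequence as the one that changed by -1.68, and its 95% interval of -1.08 to -0.66 did not meet that one's, -1.86 to -1.50.

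Igfbp7, a family relative that binds IGFs weakly, was bright in both groups on its brightest probe set. Its signals were 1396, 1579 and 1661 in control cells and 1676, 1802 and 1748 with BMP4. The groups did not overlap but nearly met, and the log2 value of 0.17 ± 0.08 was not past the threshold. A probe set at 51.7 ± 8.41 and 35.2 ± 6.67 pointed the other way (log2 -0.41 ± 0.18, not past the threshold), and 1 more, at 17.7 and 20.3, was too dim to be tested. The direction for Igfbp7 was thus not the same on its probe sets. Igfbp2 and Igfbp6 were dim, and Igfbp2 was above each array's own background on 1 of 3 BMP4 and 2 of 3 control arrays. That background was higher on the BMP4 arrays, so these counts use unlike cut-offs and are not compared. Igfbp2 had 44.9, 11.5 and 43.8 in control cells and 27.7, 26.7 and 17.7 with BMP4 (log2 -0.22, 95% interval -0.89 to 0.44). Igfbp6, which prefers IGF2 to IGF1, had 25.3, 25.1 and 46.2 without and 52.2, 34.5 and 29.2 with BMP4 (log2 0.19, -0.33 to 0.70). Igfbp2 lies next to Igfbp5 on chromosome 1, with 49480 bases between their nearest start regions, and these intervals are wide enough to hold a fall or a rise of Igfbp2. At these levels neither a change nor its absence could be shown.

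**Figure D2:**
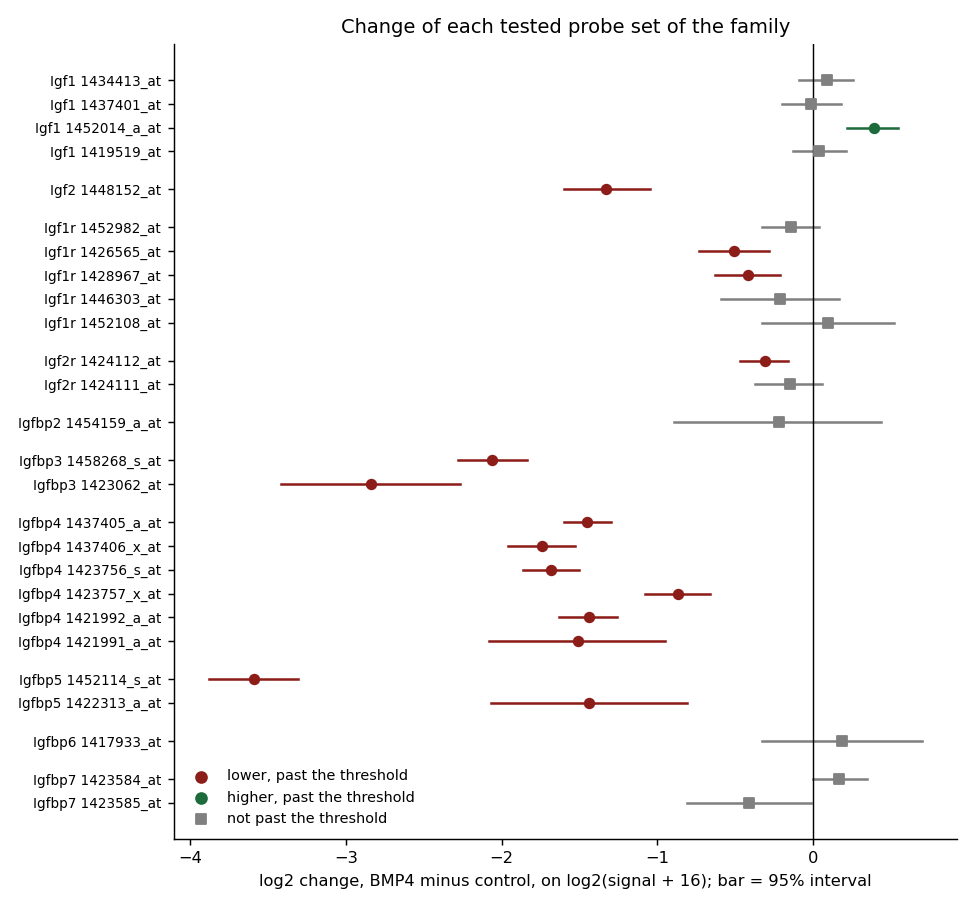
Log2 change of each of the 26 tested probe sets, BMP4 minus control, with its 95% interval (circles past the threshold, squares not). All 10 probe sets of Igfbp3, Igfbp4 and Igfbp5 lie between -0.87 and -3.59, and 3 of the 4 Igf1 probe sets lie within 0.09 of 0.

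Of the ligands, Igf2 fell, while Igf1 showed a rise on only part of its probe sets. On its only tested probe set Igf2 fell from 268, 217 and 229 to 72.7, 98.0 and 85.5. Every BMP4 array was far under the lowest control array. The means were 238 ± 26.5 and 85.4 ± 12.7 (SD, n = 3), and the log2 change was -1.33 ± 0.12 (SE). A further Igf2 probe set, built on the same source sequence, had means of 17.0 and 20.9 and was too dim to be tested. The fall of Igf2 thus rests on 1 probe set. Igf1 was bright in both groups, with 2874, 3297 and 3233 in control cells and 3272, 3415 and 3288 with BMP4 on its brightest probe set. These groups overlapped, and the log2 value was 0.09 (95% interval -0.09 to 0.26). Of its 4 probe sets 1 rose, from 1015, 958 and 966 to 1398, 1177 and 1291, a log2 change of 0.39 ± 0.08 with no overlap. The remaining 2 gave -0.01 (-0.20 to 0.18) and 0.04 (-0.13 to 0.21). The rise of Igf1 was thus seen on 1 probe set of 4, and it was not past the threshold without the intensity trend. Centred on array medians, the values of 0.09 and 0.04 became -0.01 and -0.06.

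Igf1r was lower on 2 of its 5 probe sets. One had 374, 327 and 296 in control cells and 223, 210 and 252 with BMP4, a log2 change of -0.51 ± 0.10 (SE), and another 176, 186 and 190 against 135, 140 and 126, a change of -0.42 ± 0.10. On both the BMP4 arrays were wholly below the control arrays. The brightest Igf1r probe set overlapped, at 993, 916 and 1023 against 995, 847 and 820, with a log2 value of -0.14 (95% interval -0.33 to 0.04). It was built on the same source sequence as the one that changed by -0.42. The 2 dimmest gave -0.21 and 0.10 and were not past the threshold. The one at 0.10 was built on the same source sequence as the one that changed by -0.51. It was near background, with means of 31.1 in control cells and 33.9 with BMP4. With any of BMP4 replicate 3 and control replicates 2 and 3 left out, limma no longer made the second call (log2 -0.38, -0.41 and -0.40), and leaving out the intensity trend ended the first. Igf2r had 965, 1025 and 1038 in control cells and 792, 872 and 765 with BMP4 on its brighter probe set, with no overlap and a log2 change of -0.31 ± 0.07. A second Igf2r probe set overlapped, at 632, 762 and 839 against 651, 629 and 711 (log2 -0.15, 95% interval -0.37 to 0.06). The Igf2r call ended when BMP4 replicate 1 (log2 -0.30), BMP4 replicate 3 (-0.27), control replicate 2 (-0.30) or control replicate 3 (-0.29) was left out, and without the intensity trend. A probe set that the annotation shares between Igf2r and the antisense gene Airn was near background, at 18.4 in control cells, and was not counted for Igf2r.

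**Figure D3:**
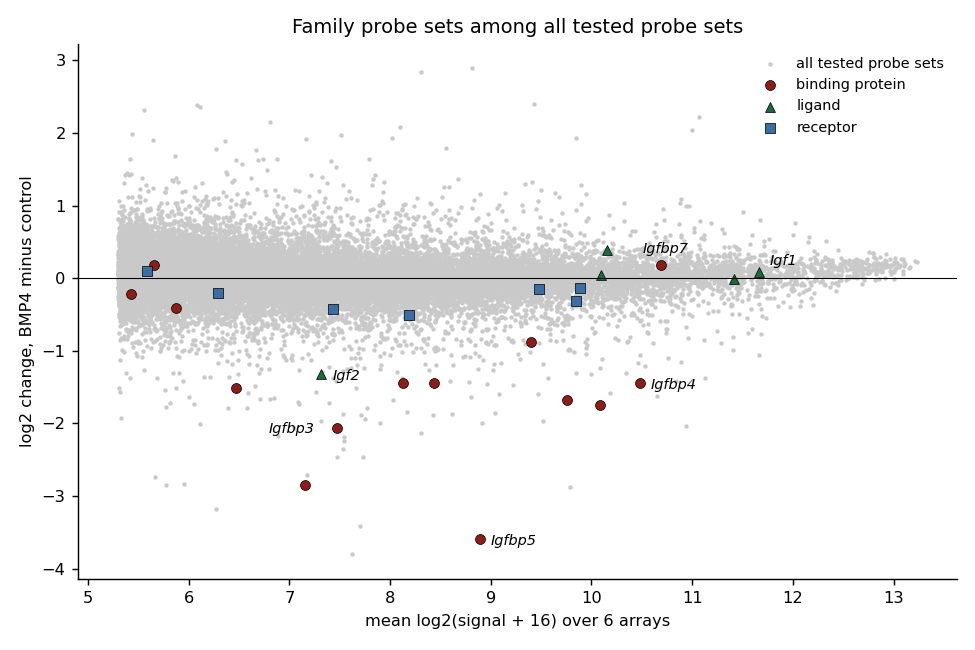
Log2 change (BMP4 minus control) against mean log2(signal + 16) over the 6 arrays for all 27022 tested probe sets (grey) and the 26 of the family (circles binding proteins, triangles ligands, squares receptors). Igfbp5 at -3.59 and Igfbp3 at -2.06 lie at the lower edge of the cloud, and the brightest probe sets of Igf1 and Igfbp7 lie near 0 at high signal.

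By the changes of their brightest probe sets the members ran from Igfbp5 (-3.59) through Igfbp3 (-2.06), Igfbp4 (-1.45) and Igf2 (-1.33) to Igf2r (-0.31), Igfbp2 (-0.22), Igf1r (-0.14), Igf1 (0.09), Igfbp7 (0.17) and Igfbp6 (0.19). The 95% intervals of Igfbp5, Igfbp3 and Igfbp4 did not meet one another. That of Igfbp4, -1.60 to -1.30, overlapped that of Igf2, -1.60 to -1.05. These intervals describe spread among arrays, on the signals that the family was selected on, so no order of the genes is inferred. The order of the first 3 turns on the choice of probe set, since the interval of the other Igfbp5 probe set, -2.07 to -0.81, holds that of Igfbp4 and meets that of Igfbp3, -2.28 to -1.84, and the other Igfbp3 probe set was at -2.84. From Igf2r on, each interval overlapped that of its neighbours in this order. Levels of different genes cannot be ranked, since each probe set has its own response.

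The genes whose arrays followed Igfbp5 most closely were Irak3, Rtl3, Gpx8, Abcg2 and Epdr1, with Pearson correlations of 0.9982 to 0.9992 with the brighter Igfbp5 probe set over the 6 arrays, among 12956 other genes. The 6 points share 2 groups, so such values mostly follow the difference between the groups. Their own log2 changes were -0.96, -1.73, -0.32, -1.02 and -1.11.

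Other genes that handle IGFs were given by 4 lists, with 1 probe set per gene, the brightest. All of these lists were chosen with earlier results of these data known. Their counts and p-values are thus a description and no independent evidence about the family. Of the 12966 genes tested 5.66% fell and 5.03% rose (limma, adjusted p under 0.05), with a median log2 change of 0.03. Of 5 tested carriers, receptors and mRNA-binding proteins none rose or fell by limma, with 1 lower at an unadjusted p under 0.05, and 1 fell, the endocytic receptor Lrp1, under quantile or cyclic loess normalization or without control replicate 1. The insulin receptor Insr, which can pair with IGF1R, had 153, 184 and 217 without and 212, 206 and 181 with BMP4 (log2 0.11, limma adjusted p = 0.633). Igfals, the partner that holds IGFBP3 and IGF in the large complex of blood, was dim, at 31.1 ± 11.6 and 34.6 ± 26.9. The liver-type carrier Igfbp1 was at or under background on all 6 arrays.

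Of 11 tested IGFBP proteases and protease inhibitors 6 fell and 1 rose, with a median log2 change of -0.27. The gene that rose was Pappa, the protease that cuts IGFBP4 and IGFBP5, with 213, 186 and 178 on control arrays and 345, 313 and 266 on BMP4 arrays. Its log2 change was 0.63 (SE 0.11; limma adjusted p = 0.00362). Its second probe set rose too. Stc1, a secreted inhibitor of PAPP-A, changed by -0.51 (limma adjusted p = 0.0206), from 176 ± 13.8 to 120 ± 16.7. That call ended without the intensity trend (0.0579) and without BMP4 replicate 2 (0.0701) or any of control replicates 1, 2 and 3 (0.0514, 0.0575 and 0.0836). The related inhibitor Stc2 gave 0.12 (limma adjusted p = 0.748). C1s1, a complement protease reported to cut IGFBP5, fell from 3604 ± 352 to 1380 ± 153 (log2 -1.38 ± 0.10, limma adjusted p = 9.29e-06). The secreted metalloproteinase Adamts1 fell from 4657 ± 308 to 2237 ± 246 (log2 -1.06, limma adjusted p = 4.76e-05). Htra1, a serine protease known to cut IGFBP5, fell from 314 ± 3.37 to 171 ± 37.6 (log2 -0.84, limma adjusted p = 0.00154). The related Htra3, named after its values were seen, gave 0.22 on its brightest probe set (limma adjusted p = 0.388) and fell by 0.83 on another.

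Of 35 tested genes of insulin and IGF receptor signalling 3 rose and 2 fell, beside 5.03% and 5.66% of all genes tested. Their median log2 change was -0.06. Nothing is inferred from these counts. After median centring of each array 1 gene rose and 4 fell, so the balance of this list depends on the scaling, and with the filter at the 60th percentile 5 rose and 2 fell. Pik3r3, a regulatory subunit of phosphatidylinositol 3-kinase, rose from 367 ± 24.2 to 732 ± 6.88 (log2 0.97 ± 0.07, limma adjusted p = 1.15e-05), while Pik3r2, another such subunit, fell from 688 ± 38.7 to 516 ± 16.4 (log2 -0.40, limma adjusted p = 0.00378). Gsk3b, a kinase that Akt inhibits, rose by 0.39 on the log2 scale (limma adjusted p = 0.00657). It was not called with arrays centred on their medians (0.0521) or without the intensity trend (0.0654). Trib3, a pseudokinase that binds Akt, rose by 0.57 (limma adjusted p = 0.0318). It lost its call without any of the BMP4 replicates (limma adjusted p = 0.0931, 0.0721 and 0.0601) and without control replicate 2 (0.111) or 3 (0.1). That call also ended without the filter (0.0664) and with median centring (0.0503). Its probe set has the suffix _x_at, so part of the Trib3 signal may come from other transcripts. Sesn1, a stress protein that restrains the growth kinase mTORC1, fell by 0.33 on the log2 scale (limma adjusted p = 0.0113; 0.0794 without the intensity trend). The receptor substrate Irs1 gave -0.09 (limma adjusted p = 0.577) and Irs2, dim at 38.8 without and 22.1 with BMP4, -0.59 (0.211). The adaptor Grb10 gave 0.02, the kinase Akt1 -0.02 and the transcription factor Foxo1 0.29, none past the threshold (limma adjusted p = 0.888, 0.938 and 0.243). The values of Grb10 and Akt1 changed sign in part of the alternatives.

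Igf2 is an imprinted gene, read from the paternal copy, and belongs to a set of imprinted growth genes that are often expressed together. The list of this set was put together with earlier results for Dlk1 and Dcn in view, so its counts are no independent evidence. Of 9 tested genes 4 fell and 1 rose, with a median log2 change of 0.00. Plagl1, a zinc finger factor known to act on other imprinted genes, fell from 2992 ± 248 to 1116 ± 178 (SD, n = 3; log2 -1.42 ± 0.11, limma adjusted p = 1.7e-05), while its other probe sets gave -0.06 and -1.73. The brightest Plagl1 probe set has the suffix _x_at, so part of its signal may come from other transcripts. Mest, a gene of the paternal copy, fell from 3964 ± 379 to 2764 ± 199 (log2 -0.52, limma adjusted p = 0.00467). Dcn, a small matrix proteoglycan, fell by 2.04 on the log2 scale (limma adjusted p = 9.39e-08). Dlk1, a membrane protein of preadipocytes, rose by 1.26 (limma adjusted p = 7.88e-05). The neighbour of Igf2, H19, was measured here on a probe set that it shares with another symbol and is not reported.

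**Figure D4:**
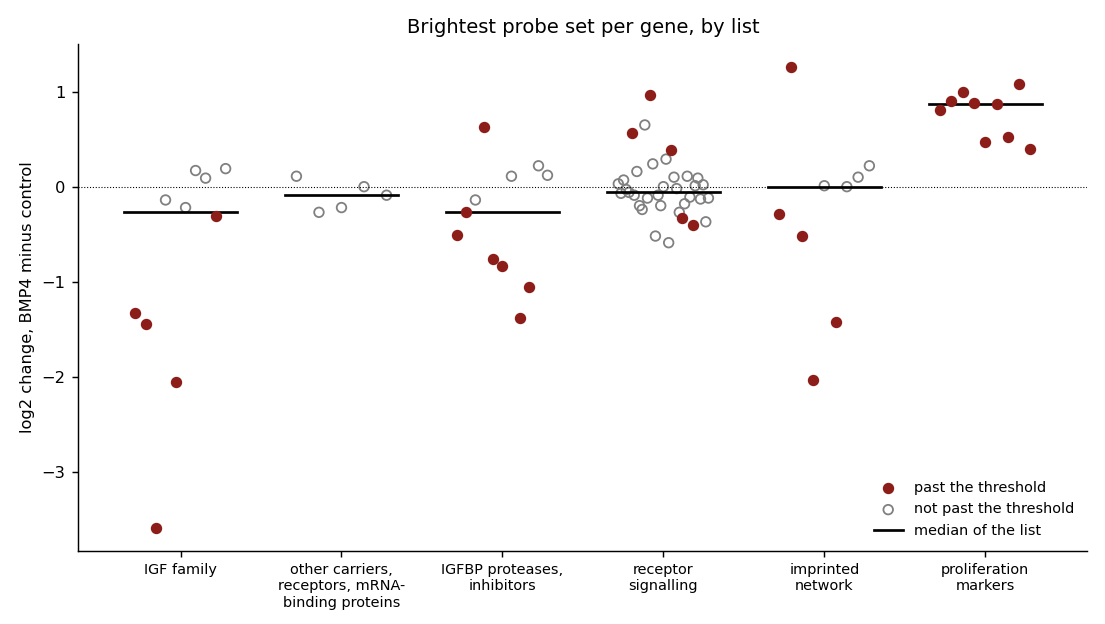
Log2 change, BMP4 minus control, of the brightest probe set of each tested gene in 6 lists (filled circles past the threshold, open circles not, black lines list medians). The family reaches -3.59, the 35 signalling genes centre on -0.06, and all 9 proliferation markers lie between 0.40 and 1.08.

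Markers of dividing cells moved with the treatment. All 9 tested genes of that list rose, against 5.03% of all genes, among them Bub1 (log2 1.08), Cdk1 (0.90) and Mki67, which went from 198 ± 5.65 to 412 ± 35.2, and their summed signal was 4464 to 4799 on control arrays and 6884 to 7455 on BMP4 arrays (limma). The count was 6 when arrays were centred on their medians, 6 with no intensity trend and 7 without control replicate 2. The part of cell division in the changes of the IGF family was not tested. In bulk RNA, fewer cells of a type and less RNA per cell cannot be told apart. Mesenchymal markers were bright in both groups, with a summed signal of 32867 to 40622 in control cells and 37145 to 43084 with BMP4 over 9 tested genes. Among them Pdgfra fell (log2 -0.90, limma adjusted p = 6.34e-05) and Cd44 rose (0.53, limma adjusted p = 0.0202), the latter no longer past the threshold without BMP4 replicate 3 (0.0598), control replicate 1 (0.072), the filter (0.0629) or the intensity trend (0.106), and with median centring (0.0863). The summed signal of endothelial markers was 243 to 259 in control cells and 154 to 246 with BMP4. That of macrophage and blood cell markers was 403 to 432 and 398 to 555, and that of skeletal muscle markers 166 to 215 and 188 to 266. Of 6 endothelial markers measured, 3 were above background on all 6 arrays (Kdr, Tek and Emcn) and 2 on none (Pecam1 and Vwf). Of 6 markers of macrophages and blood cells, 4 were above it on all arrays, with Cd14 at 195 and 196 and Csf1r at 126 and 141, and Ptprc and Itgam on none. Of 6 muscle markers, Des and Ckm were above it on all arrays and Myog and Myf5 on none. The part of other cells in the family's changes was not tested. One gene of these lists was called, the endothelial receptor Tek, which changed by -0.69 (limma adjusted p = 0.0167), from 114 to 64.7. Its adjusted p was 0.0518 with BMP4 replicate 3 left out, 0.0786 with control replicate 1 left out and 0.0588 with control replicate 3 left out (limma). Epithelial markers summed to 541 to 644 and 420 to 685, with none called by limma and none at an unadjusted p under 0.05. Most of the sum came from Epcam, at 381 ± 40.1 and 332 ± 120. Its probe set has the suffix _x_at, so part of that signal may come from other transcripts. Of 7 epithelial markers measured, 3 were above background on all 6 arrays (Epcam, Krt8 and Krt5).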

How the data were processed

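Signals of 6 single-colour arrays were used, 3 of BMP4-treated and 3 of control cells, grouped by sample title. The deposited values are linear signal intensities, and the submitters' processing notes name GCOS 1.3. Its settings for scaling and background were not given in the sources. All 6 arrays had a trimmed mean (2% off each end) of 150.0 and were not scaled again, which hides any change common to most transcripts. The number of arrays limits the precision.

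The 64 control probe sets were removed, 16 was added, log2 taken and probe sets at or under the 40th percentile of the mean (a signal of 23.5) removed. BMP4 was compared with control in limma 3.58.1 (R 4.3.3; lmFit, eBayes with intensity trend, two-sided, Benjamini-Hochberg over 27022). The fit was first tested on simulated data. SD is over 3 arrays and SE is limma's moderated SE. Members and lists were chosen with earlier results of these data known. Besides the 10 members, up to 3 called genes per list and direction, 12 genes fixed by name and the 5 most like Igfbp5 are named. Lrp1, Htra3, Epcam and the other cell type markers that were not called are named outside this rule, after their values were seen. Alternatives were other pseudocounts, filters, normalizations, eBayes settings, array weights, a replicate block and leaving out each array.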

Additional observations from a re-analysis of the deposited data

How the results depend on the processing

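Of the 26 family probe sets 17 kept their direction and their side of the threshold in every alternative in which they were tested, and 10 of the 15 called ones never lost the call, among them all 6 of Igfbp4, both of Igfbp3, the brighter Igfbp5 and Igf2. The family count of 15 was 11 without the intensity trend and 13 to 15 when an array was left out. Over all probe sets the count was 1422 without the intensity trend and 1612 to 1993 with an array left out. The signalling list had 3 changed genes without the trend, and 4 to 5 with an array left out. The list of other carriers and receptors had 1 with quantile normalization, 1 with cyclic loess and 0 to 1 with an array left out. The cause of these differences was not tested.

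Values near 0 changed sign, all short of the threshold. The dimmest of the 3 uncalled Igf1 probe sets gave -0.06 with median centring and -0.02 without BMP4 replicate 3. Its leave-one-out values ran from -0.02 to 0.10. The brightest Igf1 probe set gave -0.01 with median centring. The Igf1 probe set at -0.01 in the main fit gave 0.05 without BMP4 replicate 1 and 0.04 without control replicate 3. The dimmest Igf1r probe set gave -0.03 to 0.23 with an array left out, the lowest without control replicate 3. Grb10 gave -0.07 with median centring, -0.05 with quantile normalization and -0.04 with cyclic loess. Akt1 gave 0.06 without BMP4 replicate 1, 0.01 without control replicate 2 and 0.05 without control replicate 3, over a leave-one-out range of -0.13 to 0.06, and Stc2 -0.07 without BMP4 replicate 1, over a range of -0.07 to 0.28. Samples of the 2 groups share replicate numbers, but deviations of same-numbered samples correlated at 0.01, -0.003 and -0.072, so the numbers were not taken as pairs. With a replicate block 2090 probe sets passed, and the family count was 15 as before. Signals near background limit what can be said of Igfbp2, Igfbp6 and the dim probe sets of Igfbp7 and Igf2.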
